A study of Mus musculus with 6 samples.

Results

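The genes described here encode 10 receptors for acetylcholine and the monoamines: the muscarinic receptors Chrm1, Chrm2 and Chrm3, the nicotinic subunit Chrna7, the serotonin receptors Htr1a, Htr2a, Htr2c and Htr4, the dopamine receptor Drd1 and the beta adrenoceptor Adrb1. They were taken by symbol from the 54752 genes of the count tables, and all 10 were among the 18617 genes tested. RNA-seq was performed on the entire right hippocampus of wild-type (WT) male mice labelled C57BL/6 (C57BL/6 J in the methods) with an age label of 14 weeks, 3 after sham operation and 3 after bilateral carotid artery stenosis (BCAS), and tissue was taken 3 weeks after surgery. In BCAS, a microcoil narrows each common carotid artery, and the coil on the right, the side of the hippocampus sequenced, was the tighter of the pair. Sham mice underwent the same exposure of the arteries with no coil. Each library came from 1 mouse, so the P values measure the spread among 3 mice per group of 1 strain, sex and time point. Mice that died of the operation could not enter the BCAS group.

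Acetylcholine, serotonin, dopamine and noradrenaline reach the hippocampus through long axons whose cell bodies lie elsewhere, in the septum, raphe, midbrain and locus coeruleus, so the hippocampus makes most of the receptors but little of the transmitters. Muscarinic M1 and M3 receptors and serotonin 5-HT2 receptors act through the Gq protein and phospholipase C. M2 and 5-HT1A receptors act through Gi proteins, which lower cyclic AMP and open inward rectifier potassium channels. The 5-HT4, D1 and beta-1 receptors act through Gs proteins and raise cyclic AMP. Chrna7 alone of the 10 encodes an ion channel subunit, and its product assembles into a calcium-permeable channel of identical subunits.

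The libraries held 29652456 to 35607098 counts, and values are given as CPM, counts scaled to a common library size, with factors from the trimmed mean of M values (TMM). The lowest count of any of the 10 receptors in a library was 170, so the 3-count limit of detection (0.0875 to 0.0995 CPM) was far off. Markers of CA1, of CA2 and CA3, of dentate granule cells and of interneurons, 12 genes in each list, were all detected well enough to be tested. Of 16 pan-neuronal markers, 13 were lower in BCAS mice and none was higher, with a median log2 fold change of -0.59 (7 lower without sham 1, sham 3 or BCAS 1 and 8 without sham 2), and their summed level was 9412 to 10338 CPM in sham and 5442 to 7761 CPM in BCAS libraries. Of the CA1 markers 8 were lower (5 of them by more than 1 on the log2 scale) and none higher, with a median of -0.73 and sums of 1219.5 to 1571 CPM in sham and 735 to 1012 CPM in BCAS libraries. The CA2 and CA3 markers held 7 lower and none higher (median -0.64, sums of 551 to 564 and 251 to 407 CPM), and the interneuron markers 7 lower and none higher (median -0.42, sums of 1512 to 1687 and 966 to 1179 CPM). For dentate granule cells 4 markers were lower (2 without sham 1 or sham 2) and 1 higher (none without sham 1, sham 3, BCAS 1 or BCAS 3), with a median of -0.22 and sums that overlapped between the groups. Scaled to the pan-neuronal list, 5 CA1 markers, 2 CA2 and CA3 markers, 2 interneuron markers and 1 granule cell marker were lower, and 1, 1, 2 and 3 were higher. On that scale 0.521% of all genes tested were lower and 54.0% higher, and with TMM scaling 13.2% were lower and 18.0% higher. The part of these neuron types in the receptor values was not tested. All 12 microglia markers and 11 of 12 astrocyte markers were higher, with medians of 3.10 and 0.66. The 12 choroid plexus markers, genes of the epithelium in the ventricles beside the hippocampus, summed to between 55.5 and 6287 CPM with no separation of the groups. In bulk tissue, fewer cells of a type and less RNA per cell cannot be told apart.

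BCAS mice had lower levels of 6 of the 10 receptors, namely Chrm1, Chrm2, Chrm3, Chrna7, Htr2a and Htr4 (edgeR quasi-likelihood test, Benjamini-Hochberg adjusted P under 0.05 over all genes tested), and in each of these 6 all BCAS libraries lay below all sham libraries. The fitted falls ran from 24.5% for Chrm2 to 42.8% for Chrm1. Among all genes tested, 13.2% were lower by the same rule, and 22.7% had every BCAS library below every sham library. The median log2 fold change of the 10 receptors was -0.52, against 0.02 over all genes. None of the 10 passed the rule in the higher direction, where 18.0% of all genes did (8.47% with a log2 fold change above 1), and the count stayed at 0 at an unadjusted P under 0.05 and with DESeq2 or limma-voom. None passed a fall of more than 1 on the log2 scale either, a level that 0.999% of all genes passed, and no receptor reached that size with any of these tools. Left without sham 1, sham 2 or sham 3, the fit called 1, 2 and 2 of the 10 lower. Scaling by library totals alone left 3. These receptors are made largely by neurons, so the comparison was repeated with the libraries scaled to the pan-neuronal list. That scaling moved the median of all genes upward by 0.59, left 0 of the 10 receptors lower and turned their median to 0.07. Of all genes, 0.521% were lower and 54.0% higher on that scale. The 6 falls are thus relative to the TMM reference, and none passed the test relative to the 16 neuronal markers.

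Promoter sequences of the receptors called lower are shown, since these genes moved in the same direction. Of the 6 receptors, Chrm2, Chrm3, Chrna7 and Htr2a have an entry in the RefSeq promoter table of build GRCm38.p6. Only bases upstream of the starts in RefSeq and in the count tables are printed, 5′ to 3′ on the strand of the gene, and capitals mark GC boxes (GGGCGG on either strand) and the E-box CACGTG. The stretches are chr6:36387834-36388083 for Chrm2 (plus strand), chr13:10360848-10361053 for Chrm3 (minus strand), chr7:63212570-63212776 for Chrna7 (minus strand) and chr14:74640624-74640839 for Htr2a (plus strand).
Chrm2: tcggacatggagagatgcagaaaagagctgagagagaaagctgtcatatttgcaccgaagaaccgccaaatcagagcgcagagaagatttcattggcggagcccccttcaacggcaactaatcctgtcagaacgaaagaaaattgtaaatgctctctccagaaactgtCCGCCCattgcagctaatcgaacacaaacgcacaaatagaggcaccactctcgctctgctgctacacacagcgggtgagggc
Chrm3: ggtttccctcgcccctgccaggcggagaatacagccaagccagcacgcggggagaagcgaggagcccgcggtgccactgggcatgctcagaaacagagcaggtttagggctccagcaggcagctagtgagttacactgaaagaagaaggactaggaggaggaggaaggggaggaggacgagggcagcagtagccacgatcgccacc
Chrna7: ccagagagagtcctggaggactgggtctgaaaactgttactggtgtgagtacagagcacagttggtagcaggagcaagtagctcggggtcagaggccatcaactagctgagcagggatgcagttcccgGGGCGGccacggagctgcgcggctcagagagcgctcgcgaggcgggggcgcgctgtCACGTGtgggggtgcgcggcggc
Htr2a: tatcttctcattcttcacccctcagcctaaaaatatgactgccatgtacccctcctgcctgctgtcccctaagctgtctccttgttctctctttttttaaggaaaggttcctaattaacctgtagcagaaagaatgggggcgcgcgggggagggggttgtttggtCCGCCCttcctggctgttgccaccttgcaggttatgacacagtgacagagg
A GC box, the letters bound by Sp1-type factors, was present once each upstream of Chrm2, Chrna7 and Htr2a and absent from the stretch of Chrm3. Over windows of 300 bases, 7 of 9 receptor windows held GGGCGG on either strand, counting both windows of Drd1, and 35.7% of the 32851 windows in the table did. Receptors that were not called lower held it too, namely Htr1a, Adrb1 and Drd1 in both windows. CACGTG was found in the Chrna7 window alone and in 7.15% of all windows. The cyclic AMP response element TGACGTCA (1.79% of all windows), the TATA box TATAAA (13.6%) and the EGR site GCGTGGGCG (0.612%) were found in none of the 9. The GC content of the windows ran from 52.0% for Htr2a to 72.3% for Adrb1, with 70.0% for Chrna7. These matches describe letters and not bound sites.

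Chrm1 encodes the M1 receptor, the main muscarinic receptor of hippocampal pyramidal cells, and spans chr19:8663789-8683587 (mm10, as are all gene spans given). Its level was 220, 224 and 231 CPM in sham libraries 1, 2 and 3 and 143, 141 and 102 CPM in BCAS libraries 1, 2 and 3. The lowest sham library thus stood well above the highest BCAS library, and BCAS 3 was the lowest of all. BCAS differed from sham by a log2 fold change of -0.81 (SE 0.12, 95% interval -1.09 to -0.53, edgeR adjusted P = 0.00165). Chrm1 was the only receptor of the 10 that passed the test whichever library was left out, with -0.89 to -0.67. Scaled to the pan-neuronal list, it was at -0.24 with an edgeR adjusted P of 0.107. Of its exonic bases, 5.07% are shared with Gm22820 on the opposite strand, and reads there were counted for neither gene.

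Chrm3 encodes the M3 receptor (chr13:9875486-10360847). It was at 60.8, 56.7 and 61.0 CPM in sham libraries and 32.1, 48.6 and 26.9 CPM in BCAS libraries. Sham values were tight, whereas BCAS 2 lay closer to sham than to the other BCAS libraries. On the log2 scale the difference was -0.73 (SE 0.19, 95% interval -1.15 to -0.31, edgeR adjusted P = 0.0172). Without BCAS 2 it was -1.02, past the larger threshold, and the adjusted P rose to 0.0642 without sham 1 and 0.0627 without sham 3. BCAS 2 was also the BCAS library with the highest summed pan-neuronal level, 7761 CPM against 6650 and 5442 CPM, and the part of this in the receptor values was not tested.

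Chrm2, which encodes the M2 receptor known as a presynaptic brake on acetylcholine release (chr6:36388084-36528414), changed least among those called. Sham libraries were at 10.9, 11.9 and 12.2 CPM, and BCAS libraries at 7.69, 9.12 and 9.62 CPM. The groups did not overlap, but the gap between them was small. A log2 fold change of -0.40 was fitted (SE 0.13, 95% interval -0.71 to -0.10, edgeR adjusted P = 0.0466). The call was lost without any 1 of sham 1, sham 2, sham 3, BCAS 1 or BCAS 2 (adjusted P 0.0561 to 0.151), and scaled to the pan-neuronal list the value turned to 0.20. Opposite-strand 9330158H04Rik shares 2.35% of its exonic bases.

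Chrna7, the alpha7 nicotinic subunit (chr7:63098692-63212569), was at 22.3, 22.0 and 18.2 CPM in sham and 16.5, 11.2 and 9.39 CPM in BCAS libraries. All BCAS values were below the lowest sham value, with BCAS 1 close to it. Its log2 fold change was -0.75 (SE 0.20, 95% interval -1.21 to -0.30, edgeR adjusted P = 0.0205). Leaving out BCAS 1 took it to -1.02, and the call was lost without sham 1 (adjusted P = 0.0773) or sham 2 (adjusted P = 0.0644).

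Among the serotonin receptors, Htr2a and Htr4 were called lower. Htr2a, the Gq-coupled 5-HT2A receptor (chr14:74640840-74709494), was at 21.4, 18.1 and 19.3 CPM in sham and 8.13, 16.3 and 10.8 CPM in BCAS libraries. As with Chrm3, BCAS 2 was the highest of the BCAS libraries and came close to the lowest sham library. The fitted difference in log2 was -0.74 (SE 0.22, 95% interval -1.25 to -0.23, edgeR adjusted P = 0.0348). It was -1.05 without BCAS 2, and without any 1 of the other libraries (sham 1, 2 or 3, BCAS 1 or 3) the adjusted P was 0.0630 to 0.116.

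Htr4, the Gs-coupled 5-HT4 receptor (chr18:62324204-62467802), was at 12.5, 11.5 and 11.5 CPM in sham libraries and 9.26, 5.64 and 8.11 CPM in BCAS libraries. Here BCAS 2 was the lowest of the 6 libraries, the reverse of its place for Htr2a and Chrm3. The log2 fold change was -0.63 (SE 0.18, 95% interval -1.04 to -0.22, edgeR adjusted P = 0.0292), and the adjusted P was 0.0684 to 0.0966 without sham 1, 2 or 3.

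Htr1a, the Gi-coupled 5-HT1A receptor (chr13:105443639-105448122), did not pass. It was at 44.9, 38.6 and 37.6 CPM in sham and 26.2, 40.0 and 25.4 CPM in BCAS libraries, so that BCAS 2 lay within the sham range and the others below it. The log2 fold change was -0.40 (SE 0.17, 95% interval -0.79 to -0.01, edgeR adjusted P = 0.108), and without BCAS 2 it was -0.65 with an edgeR adjusted P of 0.00268. Htr1a was the seventh receptor at an unadjusted P under 0.05.

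Htr2c varied more among mice than any other of the 10. The gene encodes the 5-HT2C receptor (chrX:146962513-147197277), which neurons express and which is known for its abundance in the choroid plexus. Its level was 69.3, 102 and 63.7 CPM in sham and 119, 35.6 and 77.3 CPM in BCAS libraries, and the BCAS values spanned beyond the sham values on both sides. The log2 fold change was -0.02 (SE 0.36, 95% interval -0.84 to 0.80, edgeR adjusted P = 0.975), an interval wide enough to hold a change as large as that of Chrm1. The sign turned without sham 2 (0.22) and without BCAS 2 (0.32).

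The libraries fell in the same order by Htr2c as by the summed choroid plexus markers. That sum was 6287 CPM in BCAS 1, 4317 in sham 2, 3421 in BCAS 3, 1059 in sham 1, 80.7 in sham 3 and 55.5 in BCAS 2. Ttr, the transthyretin of choroid plexus epithelium and its most abundant marker here, was at 882, 3773 and 38.0 CPM in sham and 5461, 23.7 and 2930 CPM in BCAS libraries. Slc29a4, a low-affinity monoamine transporter, had 35.7, 67.7 and 29.0 CPM in sham and 76.9, 19.0 and 47.2 CPM in BCAS libraries. The summed dentate granule markers ran in a similar but not identical order. They were at 565, 631 and 462 CPM in sham and 615, 347 and 485 CPM in BCAS libraries, and their part in the Htr2c values was not tested. In a fit with the mean log2 level of the choroid plexus list as a covariate, chosen after seeing the data, Htr2c was at -0.32 (edgeR adjusted P = 0.191), and 5 of the 10 receptors were lower, with Chrm2 at an adjusted P of 0.0552. How much choroid plexus was attached to each hippocampus was not recorded in the sources used here, and its part in the Htr2c values was not tested otherwise.

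**Figure D1:**
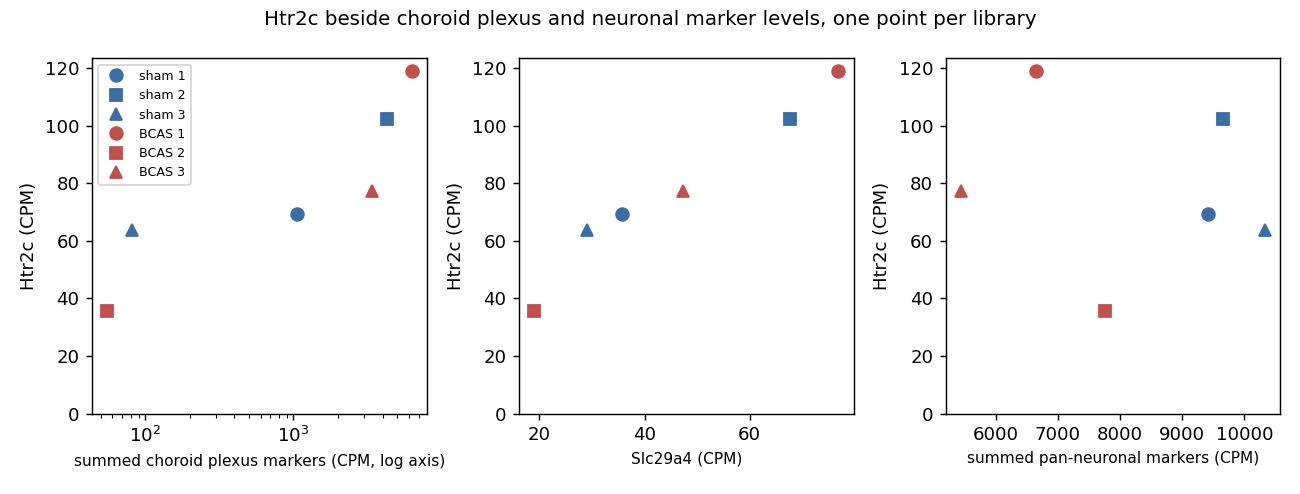
Htr2c level (CPM, vertical axis) against the summed level of 12 choroid plexus markers (CPM, log axis), Slc29a4 (CPM) and the summed level of 16 pan-neuronal markers (CPM), with 1 point per library. Htr2c follows the first and second of these from BCAS 2 (35.6 CPM) to BCAS 1 (119 CPM) and shows no such order with the neuronal sum. The summed dentate granule markers, which run in a similar order to Htr2c, are not plotted.

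Drd1 and Adrb1 did not pass the test. Drd1, the Gs-coupled D1 receptor (chr13:54051183-54055705), was at 7.97, 5.63 and 6.68 CPM in sham and 8.77, 7.43 and 6.41 CPM in BCAS libraries, with partial overlap of the groups, since BCAS 1 was above and sham 2 below all libraries of the other group. Its log2 fold change was 0.16 (SE 0.18, 95% interval -0.26 to 0.57, edgeR adjusted P = 0.551). It was the receptor of the 10 with the highest fold change, and when scaled to the pan-neuronal list it was at 0.73 and passed the test in the higher direction (edgeR adjusted P = 0.0230), as did 54.0% of all genes on that scale.

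Adrb1, the beta-1 adrenoceptor (chr19:56722372-56724862), was at 25.5, 26.6 and 31.1 CPM in sham and 22.2, 28.4 and 23.1 CPM in BCAS libraries. BCAS 2 again lay inside the sham range. The log2 fold change was -0.17 (SE 0.13, 95% interval -0.46 to 0.11, edgeR adjusted P = 0.331), so a fall of the size found for Chrm1 was outside the interval. Scaled to the pan-neuronal list the value was 0.41 and did not pass (adjusted P = 0.0663).

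**Figure D2:**
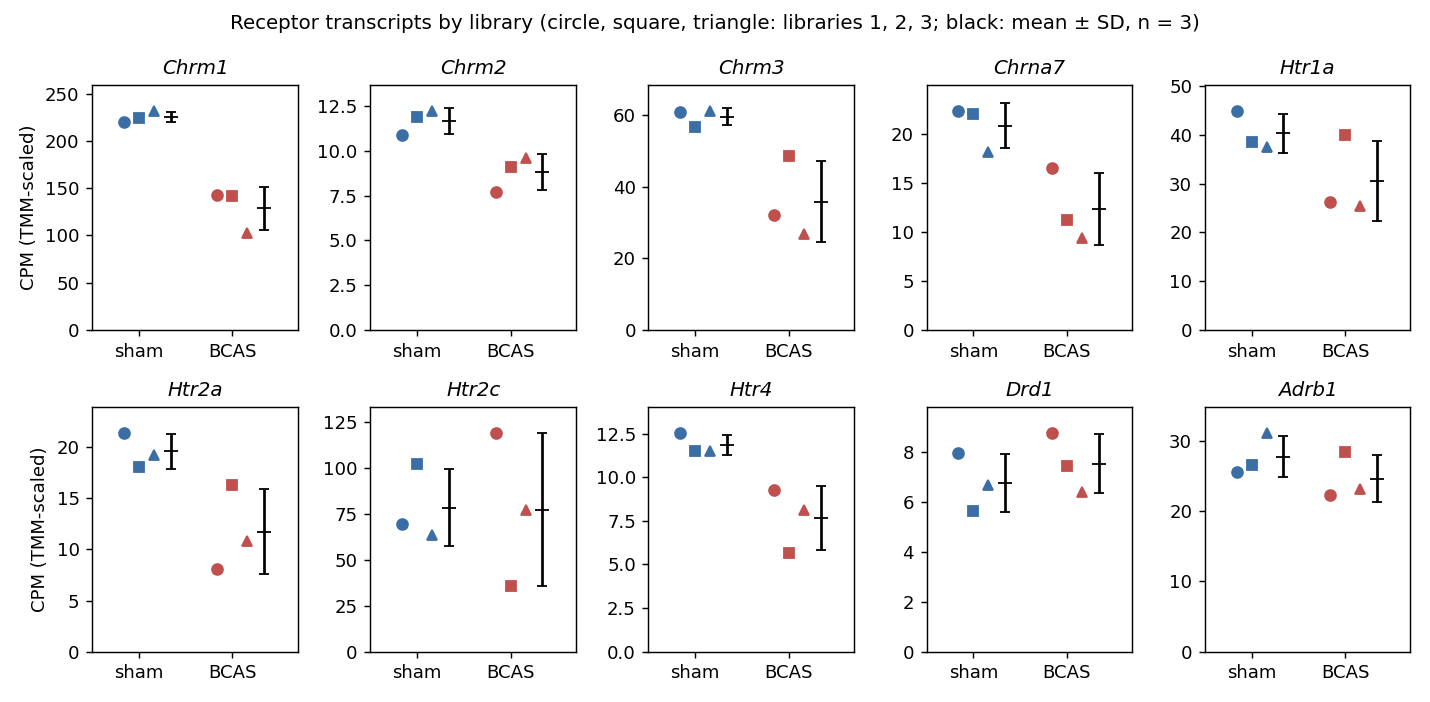
Level of each of the 10 receptors (CPM, TMM-scaled, axes from 0) by group; points are libraries 1, 2 and 3 (circle, square, triangle) and black marks are mean ± SD (n = 3). The groups do not overlap for Chrm1, Chrm2, Chrm3, Chrna7, Htr2a and Htr4, and they overlap for Htr1a, Htr2c, Drd1 and Adrb1.

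Levels of different genes were compared per length, as RPKM, which is the TMM-scaled CPM per kilobase of exon. In sham mice Chrm1 stood first at 34.7 ± 0.870 (SD, n = 3), which was 3.12 times the next receptor, Adrb1, at 11.1 ± 1.19. Chrm3 (9.52 ± 0.387), Htr1a (9.0 ± 0.883) and Htr2c (8.41 ± 2.24) followed, and the ranges of Chrm3 and Htr1a, and of Htr1a and Htr2c, overlapped. Chrna7 (4.62 ± 0.514), Htr2a (3.49 ± 0.300) and Htr4 (2.55 ± 0.127) were separate from their neighbors in sham libraries. Chrm2 (1.93 ± 0.117) and Drd1 (1.86 ± 0.323) closed the order with overlapping ranges. In BCAS mice Chrm1 was at 19.9 ± 3.53 RPKM and still stood above Adrb1 (9.86 ± 1.35), by 2.02 times. Neighboring pairs from Chrna7 down to Chrm2 overlapped in the BCAS libraries, and Drd1 there stood above Chrm2 with no overlap.

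**Figure D3:**
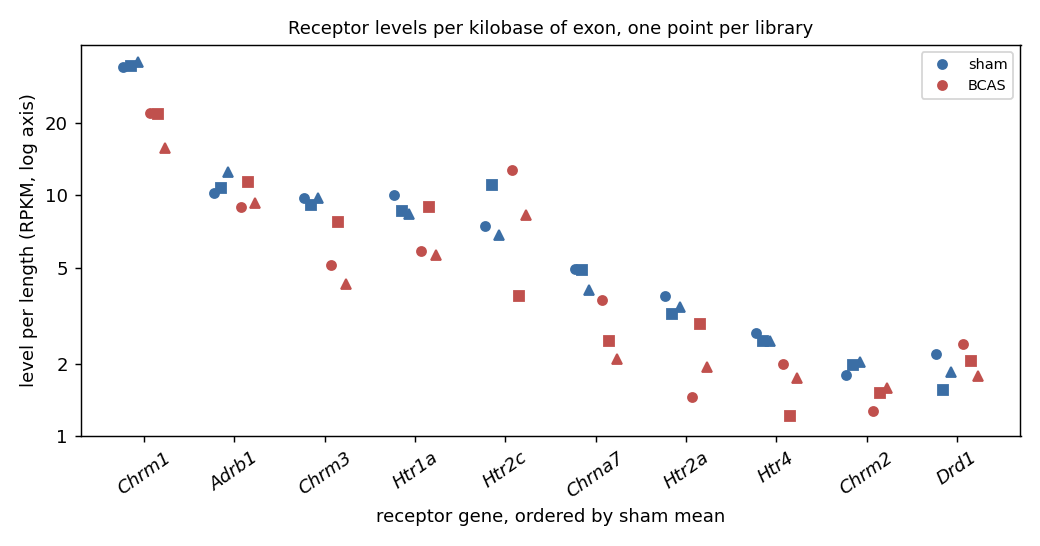
Level per length (RPKM, log axis) of the 10 receptors ordered by their sham mean, 1 point per library, sham in blue and BCAS in red. Chrm1 stands above all others in both groups, at a mean of 34.7 in sham and 19.9 in BCAS mice, and Chrm2 and Drd1 are the lowest in sham mice.

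Within the muscarinic, D1-like and 5-HT2 families the mix was described by shares of the summed level per length, with no test. Chrm1 made up 62.3% ± 1.58 of the muscarinic receptors in sham mice and 57.9% ± 5.93 in BCAS mice, and Chrm3 made up 17.1% ± 1.14 and 16.4% ± 2.55 (SD, n = 3 each). The ranges of the groups overlapped for both genes. Chrm2, the least abundant of the M1, M2 and M3 genes, held 3.39% to 3.50% in sham and 3.74% to 5.49% in BCAS mice, with no overlap. For the D1-like pair the ranges did not overlap either, as Drd1 held 43.3% ± 3.38 of Drd1 plus Drd5 in sham mice and 75.0% ± 4.90 in BCAS mice, with separate ranges of 40.7% to 47.1% and 70.4% to 80.2%. Since reads over the exonic bases that Drd5 shares with an opposite-strand gene were not counted, the share was also computed over unshared bases, a choice made after seeing the data. It was then 28.3% ± 2.82 in sham and 60.8% ± 6.28 in BCAS mice, again without overlap. Htr2c held 69.6% ± 6.29 and 69.5% ± 19.2 of the 5-HT2 receptors. Its share was 88.9%, 50.4% and 69.2% in BCAS libraries 1, 2 and 3, where Htr2a held 10.1%, 38.5% and 16.1%. The rest of each sum was Htr2b. Shares of the same sum move against each other, so they cannot tell which gene set the large spread in BCAS mice.

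The family members not among the 10, 44 genes for acetylcholine, serotonin, dopamine, noradrenaline, histamine and trace amine receptors, gave 32 genes with enough counts to test. Of these 32, 10 were lower and 2 were higher in BCAS mice by the same rule, with a median log2 fold change of -0.44, beside 13.2% lower and 18.0% higher over all genes tested. Leaving out 1 library gave 6 to 12 lower and 1 to 4 higher. Scaling to the pan-neuronal list gave 3 lower and 6 higher, beside 0.521% lower and 54.0% higher over all genes on that scale. Drd5, the Gs-coupled D5 receptor, fell furthest, from 7.76, 7.12 and 7.96 CPM in sham to 3.20, 2.22 and 1.38 CPM in BCAS libraries (log2 fold change -1.74, SE 0.27, edgeR adjusted P = 0.00195). Gm26560 on the opposite strand shares 48.6% of its exonic bases, and reads there were counted for neither gene. Adra1d, the alpha-1D adrenoceptor and per length the highest of the 32 other receptors in sham mice (30.7 ± 1.14 RPKM), fell from 56.0, 58.5 and 60.3 CPM to 32.1, 27.6 and 15.5 CPM (-1.22, SE 0.22, adjusted P = 0.00379). Chrna5, an accessory nicotinic subunit, was at 8.12, 5.54 and 7.78 CPM in sham and 3.35, 2.82 and 2.12 CPM in BCAS libraries (-1.37, SE 0.23, adjusted P = 0.00271). Drd5, Adra1d and Chrna5 were the 3 receptors that were also lower when libraries were scaled to the pan-neuronal list, at -1.19, -0.67 and -0.80, and they passed without any 1 library.

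The other 7 falls were smaller or less stable. Chrnb2, the beta2 subunit of the main brain nicotinic receptor, was at -0.47 (edgeR adjusted P = 0.00609) and Htr7, the Gs-coupled 5-HT7 receptor, at -0.64 (adjusted P = 0.00391), and both passed without any 1 library. Adra2c (-0.53, adjusted P = 0.0128) and Htr5b (-1.13, adjusted P = 0.0111) were lost without sham 3, at 0.0527 and 0.0520. Chrna1, the muscle-type alpha1 subunit, was low at 1.78 to 3.47 CPM in sham and 0.577 to 1.54 CPM in BCAS libraries (-1.26, adjusted P = 0.0393), and it was lost without sham 1, sham 2, BCAS 2 or BCAS 3. Htr1b (-0.60, adjusted P = 0.0440) and Drd2 (-0.80, adjusted P = 0.0346) passed only with all libraries or without BCAS 2, and the adjusted P without any other 1 library was 0.0898 to 0.125 for Htr1b and 0.0612 to 0.123 for Drd2. Scaled to the pan-neuronal list, Chrnb2 and Adra2c turned to 0.11 and 0.05. Opposite-strand genes share 16.3% of the exonic bases of Chrnb2 (Adar), 18.0% of Htr1b (D430036J16Rik) and 7.74% of Adra1d (Gm14285).

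Among the receptors that rose was Htr2b. Htr2b, the 5-HT2B receptor, was close to the limit of detection in sham mice with 3, 6 and 5 counts, and had 10, 54 and 117 counts in BCAS mice (3.78, SE 0.85, edgeR adjusted P = 0.0105). The rise of Htr2b was carried mainly by BCAS 2 and BCAS 3, and it was lost without sham 1 (adjusted P = 0.0542) and with limma-voom (adjusted P = 0.0852). The summed microglia markers were at 409 to 432 CPM in sham and 3014, 3302 and 4932 CPM in BCAS libraries 1, 2 and 3, and their part in this rise was not tested. Psmd1 on the opposite strand shares 11.8% of the exonic bases of Htr2b.

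**Figure D4:**
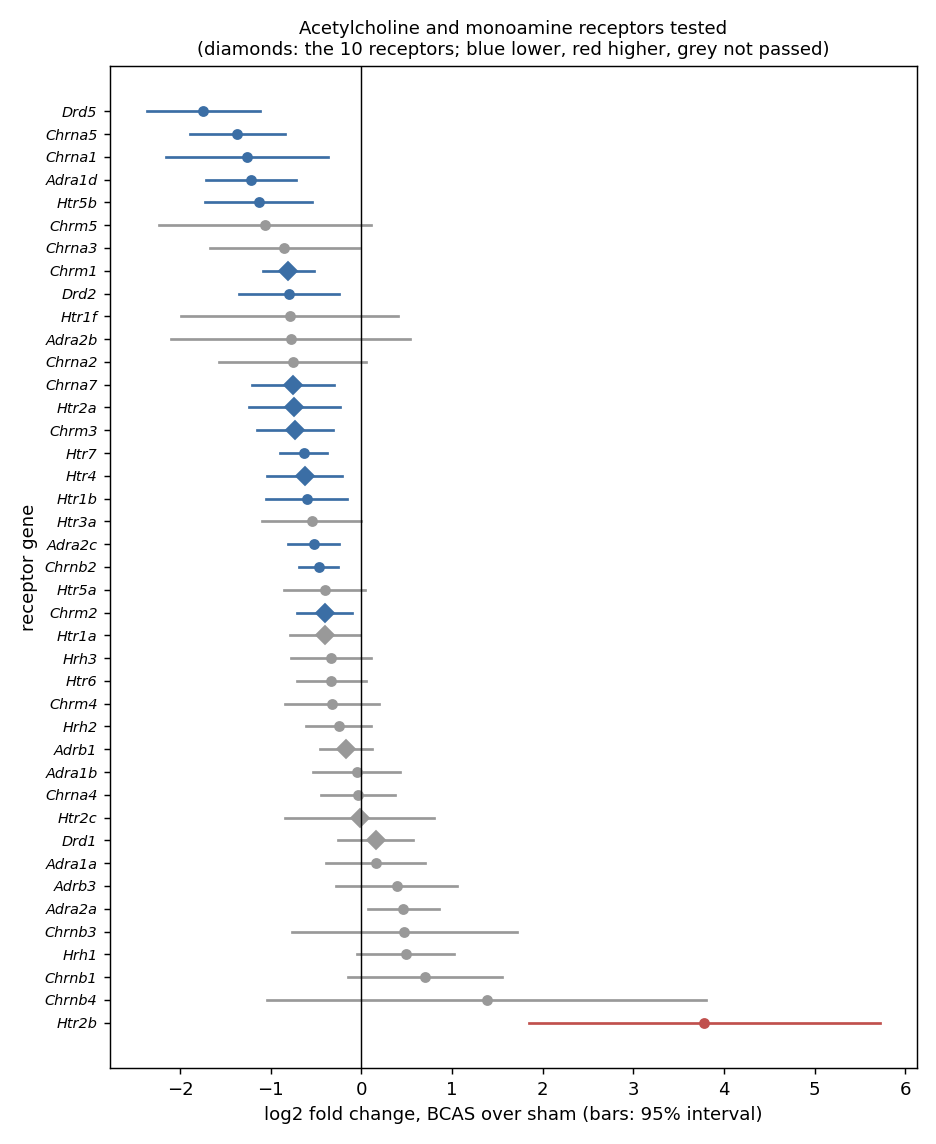
Log2 fold change (BCAS over sham, horizontal axis) with its 95% interval for the tested receptors reported here, diamonds marking the 10 receptors described here; blue, lower, red, higher, at an adjusted P under 0.05. Values run from -1.74 for Drd5 to 3.78 for Htr2b. Scaling to the pan-neuronal list leaves 3 receptors lower, namely Drd5, Chrna5 and Adra1d, beside 0.521% of all genes.

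The transmitters' own genes were listed separately. Of 7 genes of acetylcholine synthesis, transport and breakdown, 5 could be tested, 1 was lower and 1 higher. Ache, the acetylcholinesterase that ends the signal, was at 57.8, 59.7 and 70.0 CPM in sham and 42.4, 43.7 and 44.1 CPM in BCAS libraries (log2 fold change -0.53, SE 0.09, edgeR adjusted P = 0.00264), and Bche, the butyrylcholinesterase, was the higher one at 0.58 (adjusted P = 0.0346). Slc5a7, the choline transporter, had the top value of the list at 0.80 and did not pass (adjusted P = 0.197). Chat, which makes acetylcholine, lay between 0 and 0.246 CPM and was too low to test. Of 16 monoamine genes, 13 were tested, none was lower and 2 were higher, beside 13.2% lower and 18.0% higher over all genes tested. Tph2, the neuronal enzyme of serotonin synthesis, was at 1.42, 0.898 and 0.729 CPM in sham and 1.79, 2.19 and 3.72 CPM in BCAS libraries (1.33, SE 0.37, adjusted P = 0.0258), and Maob, a monoamine oxidase, was at 0.31 (adjusted P = 0.0374). No gene of this list was higher without sham 2, sham 3 or BCAS 3, and Bche was not higher without sham 1, sham 2, sham 3 or BCAS 3. The lowest monoamine gene, Dbh, was at -0.82 and did not pass (adjusted P = 0.267). Scaled to the pan-neuronal list, 0 acetylcholine genes were lower and 3 higher, so that Ache was not called. On that scale 0 monoamine genes were lower and 7 higher, beside 0.521% lower and 54.0% higher over all genes.

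Proteins that assemble or serve the receptors followed next. Of 8 genes for nicotinic receptor assembly and for Ly6-type proteins that bind nicotinic receptors, 4 were lower and 1 higher. The lowest was Lynx1, a brake on nicotinic receptors (-0.64, SE 0.10, edgeR adjusted P = 0.00147), and the one higher was Ly6e (0.89, SE 0.16, adjusted P = 0.00322). The other three lower, named after their values were seen, were the chaperones Ric3 (-0.34) and Tmem35a (-0.46) and the Ly6-type protein Lypd1 (-0.57). Scaled to the pan-neuronal list, 0 of these 8 genes were lower and 2 were higher, beside 0.521% lower and 54.0% higher over all genes. In the Gq pathway that Chrm1, Chrm3 and Htr2a use, 11 of 15 genes were lower and 2 higher, with a median of -0.59. Named after their values were seen, Gnaq, the Gq alpha subunit itself, was at -0.50 (adjusted P = 0.00424), Plcb1 at -0.61 (adjusted P = 0.00783), and the M-current channels Kcnq3 and Kcnq5, which muscarinic signaling closes, were at -0.73 and -0.66. Plcb2, the phospholipase C of blood and immune cells, rose, at 3.60, 2.18 and 3.44 CPM in sham and 13.9, 15.8 and 21.7 CPM in BCAS libraries (2.47, SE 0.24, adjusted P = 0.000128), and the other that rose was Plcb3 (0.91, adjusted P = 0.00253).

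In the Gi pathway used by Chrm2 and Htr1a, 9 of 14 genes were lower and 2 higher, with a median of -0.46. Rgs14, a regulator of G proteins typical of CA2, fell from 104, 104 and 112 CPM to 58.1, 46.2 and 31.3 CPM (-1.24, SE 0.19, edgeR adjusted P = 0.00150). Kcnj3, a subunit of the potassium channel that M2 and 5-HT1A receptors open, was named after its values were seen and was at -0.83 (adjusted P = 0.000101). The highest of the list was Gnai2 (0.74, adjusted P = 0.000657), a Gi alpha subunit abundant in immune cells, and Gnai3 rose as well (0.47, adjusted P = 0.00724). In the Gs and cyclic AMP pathway of Htr4, Drd1 and Adrb1, 9 of 20 were lower and none higher, with a median of -0.24 and extremes of -0.78 for Pde10a (adjusted P = 0.00147) and 0.30 for Ppp1r1b, which did not pass. The number lower on the Gs list was 3 without sham 1, 4 without sham 2, 4 without BCAS 1 and 5 with library totals, and on the Gi list it was 5 without sham 2. Receptor kinases and arrestins, which switch the receptors off, had 1 of 7 lower (Grk6, -0.23, adjusted P = 0.0391) and 1 higher (Arrb2, 0.41, adjusted P = 0.0127), with a median of 0.03. No gene of this list was lower without sham 1, 2 or 3, BCAS 1 or BCAS 3, nor with library totals or the 1-count filter, and none was higher without sham 2. These shares stand beside 13.2% lower and 18.0% higher over all genes. Scaled to the pan-neuronal list, 1 gene of the Gq, 1 of the Gi and none of the Gs list was lower, and 4, 5 and 9 were higher, beside 0.521% lower and 54.0% higher over all genes. Of the receptor kinases and arrestins, 0 were lower and 6 were higher on that scale.

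**Figure D5:**
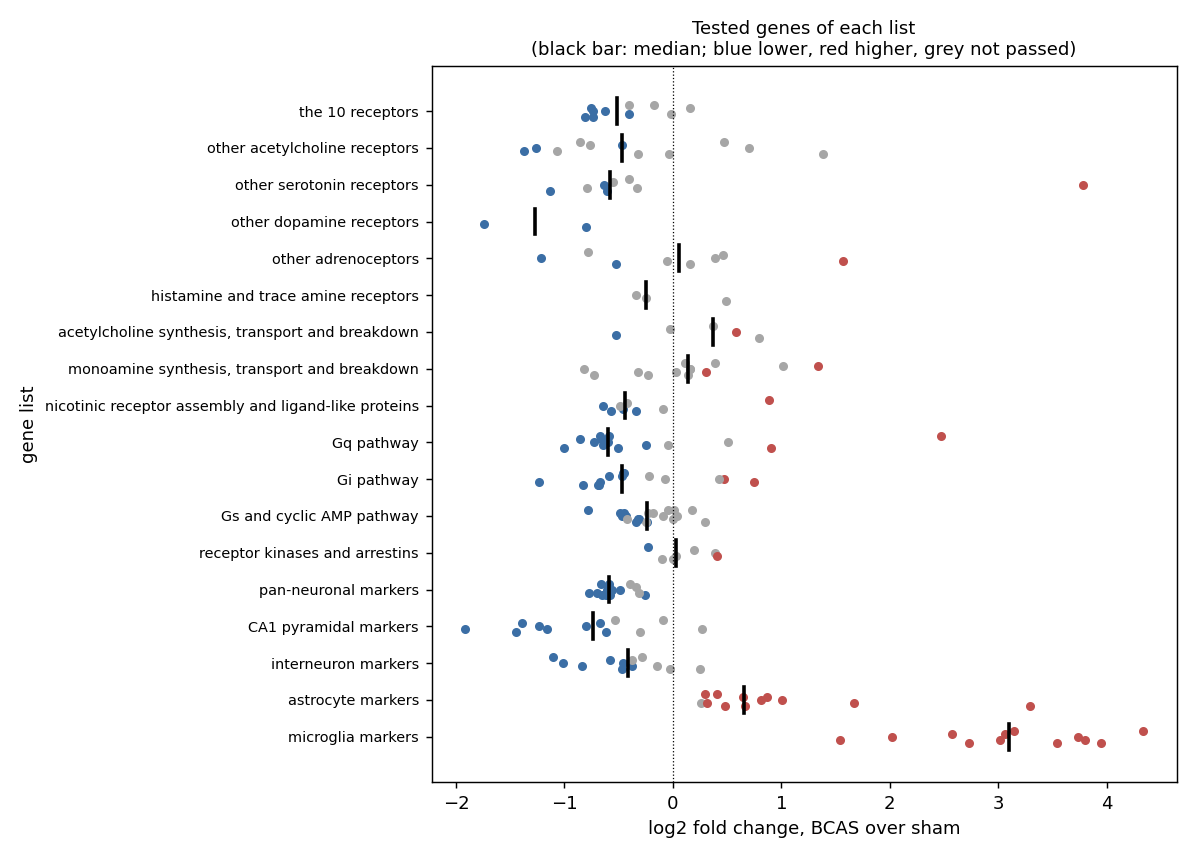
Log2 fold change (BCAS over sham, horizontal axis) of every tested gene in the receptor, enzyme and pathway lists and in some marker lists. The marker lists shown are pan-neuronal, CA1, interneuron, astrocyte and microglia, and the others are not plotted. Black bars are medians, blue is lower and red higher at an adjusted P under 0.05. The median of the 10 receptors (-0.52) lies above those of the Gq pathway (-0.59), the pan-neuronal markers (-0.59) and the other serotonin receptors (-0.58). It lies below those of the other acetylcholine receptors (-0.47) and the Gi pathway (-0.46). The median of the 10 turns to 0.07 when libraries are scaled to the pan-neuronal list.

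The listed genes most like each receptor across the 6 libraries were found by Pearson's r of log2 CPM among 265 genes with a mean of at least 1 CPM. The points are the 6 libraries of both groups, so 2 genes that differ between the groups are alike for that reason too, and no test was made. Chrm1 was most like Nefl and Gnaq (r = 0.996 for both), Chrm3 most like Syt1 (0.989) and Prkcb (0.988), and Chrna7 most like Rgs8 (0.987) and Adcy9 (0.985). Chrm2 was nearest to Pvalb (0.964) and Nts (0.953), and Htr4 to Slc18a2 (0.991) and Amigo2 (0.975). Htr1a was nearest to Pde4d (0.957) and Htr1b (0.954), and Htr2a to Htr1b (0.968) and Tac1 (0.953). Htr2c was nearest to C1ql2 (0.980), a dentate granule gene, and to Slc29a4 (0.977), and no choroid plexus marker ranked first or second on this log2 scale. Adrb1 was nearest to Htr5a (0.958) and Tubb3 (0.957). Drd1 had no close match, with Creb1 at 0.624 and Tle4 at 0.566.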

How the data were processed

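Per the paper's methods and the labels, the authors prepared libraries with the NEBNext Ultra RNA kit, sequenced pairs on an Illumina HiSeq, trimmed reads with Trim Galore, aligned them to mm10 with HISAT2, and counted reads with featureCounts. The deposited values are raw counts per gene, not normalized. Per the file headers, featureCounts 2.0.3 was run with a GENCODE annotation, whereas the methods name 1.6.3 and RefSeq genes. The headers show no strand setting, mates counted as separate reads, and reads of several genes or places left out. Mice are numbered 1 to 3 as in the labels, while the headers number the BCAS alignments 2 to 4. Of 54752 gene identifiers, 54723 were matched to a symbol.

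Genes were kept by filterByExpr, scaled by TMM (factors 0.964 to 1.05) and tested with edgeR 4.0.16 (quasi-likelihood, BCAS against sham, no block, R 4.3.3), with Benjamini-Hochberg adjustment over 18617 genes and a threshold of 0.05. Log2 CPM used a prior count of 2. The 10 receptors, the gene lists and the alternatives were chosen with earlier results of these data known. Named were all 10 receptors, other receptors past the threshold, listed genes also past a log2 fold change of 1, and the extremes of each list, save for a few genes counted in their lists but not reported here. Alternatives were DESeq2 1.42.0, limma-voom 3.58.1, RLE factors, library totals, scaling to the pan-neuronal list, 2 other filters, halved counts, a replicate block, a choroid plexus covariate and leaving out each library. The 95% intervals come from the edgeR fit and include the spread among mice, and limits of detection cover counting error only. On simulated data (18617 genes), edgeR recovered 56% of changes of 0.75 and 99% of changes of 1.5 on the log2 scale, with 11 false calls. The simulation gave every gene the same spread among mice. It changed only 100 genes per size, all counted well above the limit of detection. The real genes differ in spread and many more were called, so these rates are not those of the real comparison. Promoter windows came from a RefSeq table (GRCm38.p6). Chrm1 and Htr4 had no window used here.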

Additional observations from a re-analysis of the deposited data

How the results depend on the processing

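The 6 receptors called lower stayed 6 with DESeq2, limma-voom, RLE factors, halved counts and a filter at a mean of 10 counts. With no filter beyond 1 count the number was 6 as well, but Chrm2 was lost and Htr1a gained. Library totals left 3 (Chrm1, Chrm3, Chrna7), with Htr2c turning to 0.0584, and leaving out 1 library gave 1 to 6 lower and 0 to 2 past a log2 fold change of 1. Without sham 1, 2 or 3 the numbers were 1, 2 and 2, and the calls over all genes dropped from 2463 lower to 1258 to 1432, while without BCAS 2 they rose to 3083. The cause was not tested. Scaling to the pan-neuronal list moved the median of all genes by 0.59 (97 genes lower and 10044 higher in all). It left 0 of the 10 lower and 1 higher (Drd1), and it turned Chrm2 (0.20), Htr1a (0.15), Htr2c (0.60), Adrb1 (0.41), Chrnb2 (0.11) and Adra2c (0.0518). Htr2c ran from -0.47 to 0.32 when 1 library was left out. Of the other receptors, 3 were lower and 6 higher on the pan-neuronal scale, 1 was higher with limma-voom, and leaving out 1 library gave 6 to 12 lower and 1 to 4 higher. The replicate numbers did not pair the mice by the numbers of the labels (correlations of deviations 0.036, -0.314 and -0.158 for numbers 1, 2 and 3). For the other pairs they ran from -0.246 (sham 3 with BCAS 1) to 0.347 (sham 3 with BCAS 2), with 0.223 for sham 2 with BCAS 1. With the label number as a replicate block, 4 receptors were lower (Chrm1, Chrm3, Chrna7, Htr4), and 1750 genes were lower and 2782 higher in all, against 2463 and 3356, while no acetylcholine or monoamine synthesis, transport or breakdown gene was higher and no receptor kinase or arrestin gene lower. No block by the numbers of the file headers was fitted. With 3 mice per group, the smallest fall called among the 10 receptors was -0.40 on the log2 scale (Chrm2). The 95% intervals were -0.79 to -0.01 for Htr1a and -0.84 to 0.80 for Htr2c, neither of which was called. For Drd1 and Adrb1, also not called, they were -0.26 to 0.57 and -0.46 to 0.11. Each of these intervals holds values other than 0, so the 4 receptors not called are not shown to be unchanged.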
